A study of Mus musculus with 24 samples.

Results

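Left ventricles of dnCREB and wild-type mice that received phosphate-buffered saline (PBS) were compared on 3 arrays of each genotype, 6 of the 24 arrays in the series. The comparison takes in every gene measured in the ventricle outside the sex chromosomes. Of 18193 genes, each read by the probe set that was brightest on average across the 24 arrays, 9962 had a log2 value above 4 in at least 3 of the 12 left ventricle arrays. The 301 of these on the X or Y chromosome were left out, and 9661 were tested.

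The series measured RNA from lung and from left ventricle on Affymetrix mouse arrays, in 8 groups of 3 animals, with either genotype given PBS or particulate matter. The wild-type group used here held CD-1 mice of 20 weeks without the transgene, given PBS. The dnCREB group held CD-1 mice of the same age, also given PBS, whose transgene makes a dominant negative CREB1, a transcription factor, from the alpha myosin heavy chain promoter, which is active in heart muscle cells. The other cells of the ventricle, such as fibroblasts and endothelium, are therefore not where the transgene was designed to act, and the arrays read the RNA of all of them together. The labels name neither a founder line nor the relation of the wild-type animals to the transgenic ones. The same genotypes were also sampled 36 h after particulate matter (PM, 20 mg/kg of 1.9 µm particles), and those 6 ventricle arrays and the 6 lung arrays under PBS are set beside the comparison at its end.

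CREB1 binds the cyclic AMP response element, the sequence TGACGTCA and its core TGACG, and switches on transcription after protein kinase A phosphorylates it downstream of adrenergic signalling. A dominant negative form occupies these sites or pairs with the normal protein without activating the gene. Failing ventricles are known for return of the fetal gene programme, growth of the extracellular matrix, loss of repolarising potassium currents, and a shift away from the mitochondrial oxidation of fatty acids that fuels the healthy heart.

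The 5 probe sets of Creb1 were read first, as a check of the genotype. The one with the largest difference, singled out after its values were seen, stood at 2.75, 2.79 and 3.29 in the wild-type hearts and at 10.18, 12.00 and 9.18 in the dnCREB hearts. Another read 7.21, 5.85 and 6.33 in wild type and 8.80, 10.58 and 8.42 in dnCREB, a difference of 2.81 ± 0.64 (SE, adjusted p = 0.015 over all probe sets). On both, the groups lay apart, and dnCREB replicate 2 was the highest array. The other 3 differed by -0.07, -0.19 and -0.36 and did not pass the test, and the last of these, the brightest over all arrays, is the one that stands for Creb1 among the 9661 genes.

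The ventricle libraries were close to each other, with a lowest correlation between any pair of 0.979 and medians over the genes tested between 8.78 and 9.24. Markers of ventricular cardiomyocytes were present in every array, with the mean over 13 markers between 15.35 and 15.71 in the wild-type hearts and between 15.40 and 15.57 in the dnCREB hearts. Every array is labelled as from a male mouse, and the wild-type hearts went against that label. Xist, the RNA that coats an inactive X chromosome, stood between 12.05 and 13.05 in the wild-type hearts and between 2.90 and 2.97 in the dnCREB hearts. Eif2s3y, a gene of the Y chromosome, stood between 3.23 and 3.34 in the wild-type hearts and between 10.85 and 11.26 in the dnCREB hearts. Sex class and genotype therefore cannot be told apart within the PBS arrays, although the genes of the X and Y chromosomes were left out of every count below. Only the dnCREB PM replicate 3 heart breaks the pattern, with Xist at 13.71. Whether animals or libraries were exchanged was not tested. Most list counts are also given with the sex class as a covariate, an estimate that rests on that array.

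The dnCREB and wild-type ventricles differed widely, in PBS arrays where sex class and genotype go together. A linear model (limma) over the 12 ventricle arrays called 1785 of 9661 genes at an adjusted p under 0.05, which is 18.5% of the genes tested. Of these, 1254 were higher in the dnCREB hearts (13%) and 531 were lower (5.50%), and 3189 genes had an unadjusted p under 0.05. On the deposited scaling the median size of change was 1.05 for the genes called higher and 0.90 for those called lower. At least 2-fold changes were seen in 671 of the higher and 221 of the lower genes, and at least 16-fold changes in 33 and 10. These sizes include 52 higher genes with every wild-type heart under 4 and 8 lower genes with every dnCREB heart under 4. Whether the sizes compare alike under another scaling was not tested. The genes that rose had a median level of 8.97 in wild type, close to the 8.89 of all genes tested, whereas those that fell read brighter, with a wild-type median of 10.98. The 2 groups of arrays did not overlap for 4113 genes (42.6%), among them 1242 of the genes called higher and 530 of those called lower. Differences below are log2 values, dnCREB minus wild type, so that 1 is a 2-fold change, with the standard error (SE) of the model.

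The split between higher and lower genes depended on the scaling of the arrays. The median difference over all genes was 0.09, and it moved by -0.22 when each array was centred on its median and by -0.12 under quantile normalization. Centred arrays gave 883 higher and 1137 lower genes and quantile normalization gave 1039 and 812. With the sex class as a covariate 217 genes were higher (2.25%) and 105 lower (1.09%), and the direction was kept for 1253 of the 1254 genes called higher and 531 of the 531 called lower. Leaving out dnCREB replicate 3 left 1043 genes called, and leaving out wild-type replicate 3 left 1131.

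**Figure D1:**
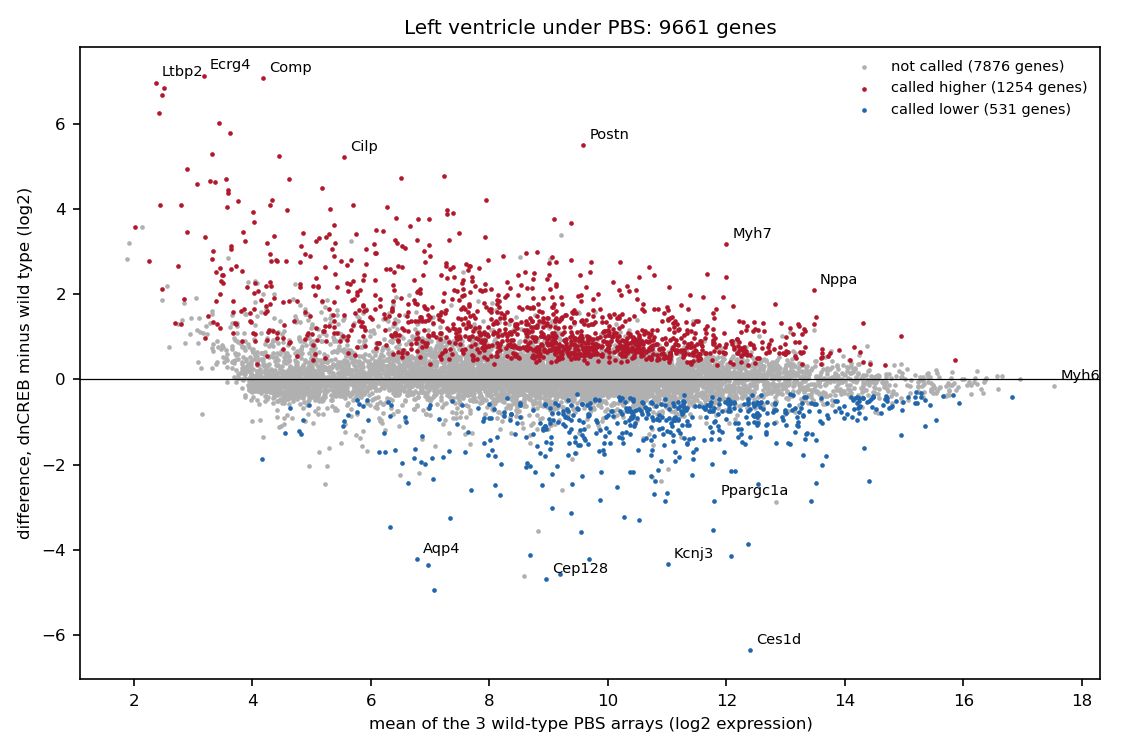
Each point is 1 of the 9661 genes, with the mean of the 3 wild-type arrays (log2 expression) on the horizontal axis and the difference, dnCREB minus wild type (log2), on the vertical axis. Of the genes called, 1254 lie above 0, with Comp at 7.07, and 531 lie below it, with Ces1d at -6.35.

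Genes of the CREB pathway itself went both ways. Of 26 measured members of a list of CREB relatives, coactivators and target genes, 4 rose (15.4%, beside 13% of all genes) and 2 fell (7.69%, beside 5.50%), a median of -0.14 beside 0.09 over all genes. Crem, a CREB relative whose inducible form represses the same sites, read 6.89, 6.95 and 7.91 in the wild-type hearts and 8.27, 8.77 and 9.36 in the dnCREB hearts. All 3 dnCREB hearts were above the wild-type hearts, by 1.55 ± 0.45 (adjusted p = 0.038). Bcl2, a survival factor, rose by 2.89 ± 0.34 (adjusted p = 0.00052), Ptgs2, the inducible cyclooxygenase, by 2.77, and the coactivator Crtc3 by 0.36. Dusp1, a phosphatase that ends MAP kinase signalling and is induced by cyclic AMP, read 12.73, 13.59 and 13.74 in the wild-type hearts and 12.10, 11.96 and 12.25 in the dnCREB hearts. It fell by 1.25 ± 0.32 (adjusted p = 0.021), with the lowest wild-type heart above the highest dnCREB heart, and the coactivator gene Ppargc1a, described with the mitochondrial genes, fell too. The count is not stable: the 4 rises became 2 without wild-type replicate 1, dnCREB replicate 2 or dnCREB replicate 3 and 7 without dnCREB replicate 1, the 2 falls became 1 without wild-type replicate 1 or 2 or dnCREB replicate 1 or 2 and 0 without wild-type replicate 3, centred arrays gave 3 and 4, and the sex class 2 and 3.

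The cyclic AMP response element was then looked up in the promoters. Of the genes called higher 988, and of those called lower 435, had a window of 250 bases before the transcription start in the RefSeq table (GRCm38.p6). TGACGTCA, searched on both strands, was found for 2.83% of these higher and 2.99% of these lower genes, beside 3.01% of all tested genes with a window. Of all RefSeq windows 1.55% held it, a share of windows and not of genes, so it cannot be set beside the other shares. The core TGACG, which TGACGTCA also contains, was found for 26.8% of the higher and 28.7% of the lower genes, beside 30.9% of tested genes. Neither class of called genes held the element more often than the genes tested as a whole. Dusp1 and Hlf, a clock-controlled transcription factor that fell, and Maff, a small MAF protein that rose, each carry it, and their elements are shown in capitals within the stretch before the start, 5′ to 3′ on the gene's strand. Maff and Hlf were chosen after their values were seen, for the largest rise and the largest fall among the called genes with the element.
Dusp1: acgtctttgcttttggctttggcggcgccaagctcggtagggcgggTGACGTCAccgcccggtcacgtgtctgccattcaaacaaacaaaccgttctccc
Hlf: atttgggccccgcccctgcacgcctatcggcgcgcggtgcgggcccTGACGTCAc
Maff: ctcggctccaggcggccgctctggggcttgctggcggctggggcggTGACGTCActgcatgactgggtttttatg
The Dusp1 stretch is chr17:26508562-26508661 on the minus strand, with the first base of the element 143 bases before the start. The Hlf stretch is chr11:90390918-90390972 on the minus strand (9 bases) and the Maff stretch chr15:79347445-79347519 on the plus strand (29 bases). The 3 genes share these letters. Dusp1 changed by -1.25 and Hlf by -2.42, while Maff was at least 12.2-fold higher (adjusted p = 0.0038). The opposite directions of Hlf and Maff follow from how they were chosen. A match of letters is a description and shows no binding.

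The natriuretic peptides and other genes of the fetal programme rose. Of 14 measured members, 8 were higher and 0 lower, with a median of 1.00. Nppa, atrial natriuretic peptide, read 12.59, 13.99 and 13.84 in the wild-type hearts and 15.70, 15.57 and 15.45 in the dnCREB hearts. Nppb, brain natriuretic peptide, read 12.24, 12.74 and 11 in the wild-type hearts and 14.44, 14.25 and 14.51 in the dnCREB hearts. Every dnCREB heart was above every wild-type heart for both, by 2.10 ± 0.33 (adjusted p = 0.0022) and 2.40 ± 0.38 (adjusted p = 0.0022), and the wild-type hearts were spread more widely than the dnCREB hearts. Myh7, the slow beta myosin heavy chain of the fetal ventricle, read 12.92, 10.77 and 12.31 in the wild-type hearts and 15.09, 15.17 and 15.26 in the dnCREB hearts. Acta1, skeletal actin, read 14.01, 12.61 and 13.90 in the wild-type hearts and 15.09, 15.11 and 14.71 in the dnCREB hearts. The groups did not overlap, with differences of 3.17 ± 0.75 (adjusted p = 0.016) and 1.46 ± 0.40 (adjusted p = 0.03), and wild-type replicate 2 was the lowest array for both.

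Ankrd1, a stretch-responsive nuclear and sarcomeric protein, rose by 1.01 ± 0.12 (adjusted p = 0.00059), the actin regulator Enah by 1.0, the atrial light chain Myl4 by 3.25 and the intermediate filament Des, singled out after its values were seen, by 0.72. Myh6, the adult alpha myosin whose promoter drives the transgene, read 17.41, 17.70 and 17.48 in the wild-type hearts and 17.43, 17.37 and 17.34 in the dnCREB hearts. It was the brightest probe set on each of these arrays, its groups overlapped and it did not pass (adjusted p = 0.37). Its other probe set read 15.96, 15.88 and 16.23 in wild type and 14.71, 14.52 and 14.24 in dnCREB. There the groups lay apart, by -1.53, and limma gave an adjusted p of 0.26 over all probe sets. The count of 8 became 4 without wild-type replicate 2 or dnCREB replicate 3, 5 without dnCREB replicate 1 and 1 with the sex class, with the median then at 1.06.

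In the sarcomere and Z-disc list 6 of 29 members rose (20.7%, beside 13% of all genes) and 1 fell (3.45%, beside 5.50%), with a median of 0.04 beside the 0.09 of all genes. Beside Myh7, the cytoskeletal tropomyosins Tpm3 and Tpm4 rose by 0.76 and 0.82, and Synpo2l, a Z-disc protein, by 1.94 ± 0.24 (adjusted p = 0.0006). Myoz2, a calcineurin-binding Z-disc protein, fell by 0.39. The 6 rises became 3 without wild-type replicate 2 or dnCREB replicate 3 and 1 with the sex class, and Myoz2 lost its call without wild-type replicate 2 or 3 or dnCREB replicate 2 or 3 and with only the 6 PBS arrays.

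Signalling genes of stretch and hypertrophy went both ways, with a median of 0.06. Of 20 measured members 2 were higher (10%, beside 13% of all genes) and 3 lower (15%, beside 5.50%). Rcan1, a feedback inhibitor of calcineurin that is itself a calcineurin target, read 10.76, 10.66 and 10.65 in the wild-type hearts and 13.65, 13.04 and 13.31 in the dnCREB hearts. Its dnCREB hearts were all higher, by 2.64 ± 0.33 (adjusted p = 0.00068), and Ankrd23, a titin-binding stretch sensor, rose by 1.34. Klf15, a repressor of hypertrophy that also drives lipid oxidation genes, read 11.21, 10.77 and 10.54 in the wild-type hearts and 8.72, 8.37 and 9.07 in the dnCREB hearts. It was lower in each dnCREB heart, by 2.12 ± 0.40 (adjusted p = 0.0055), as were the homeodomain protein Hopx (-2.0) and the LIM protein Fhl2 (-0.94). The sex-class fit gave 1 higher and 1 lower, and centred arrays gave 5 lower.

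**Figure D2:**
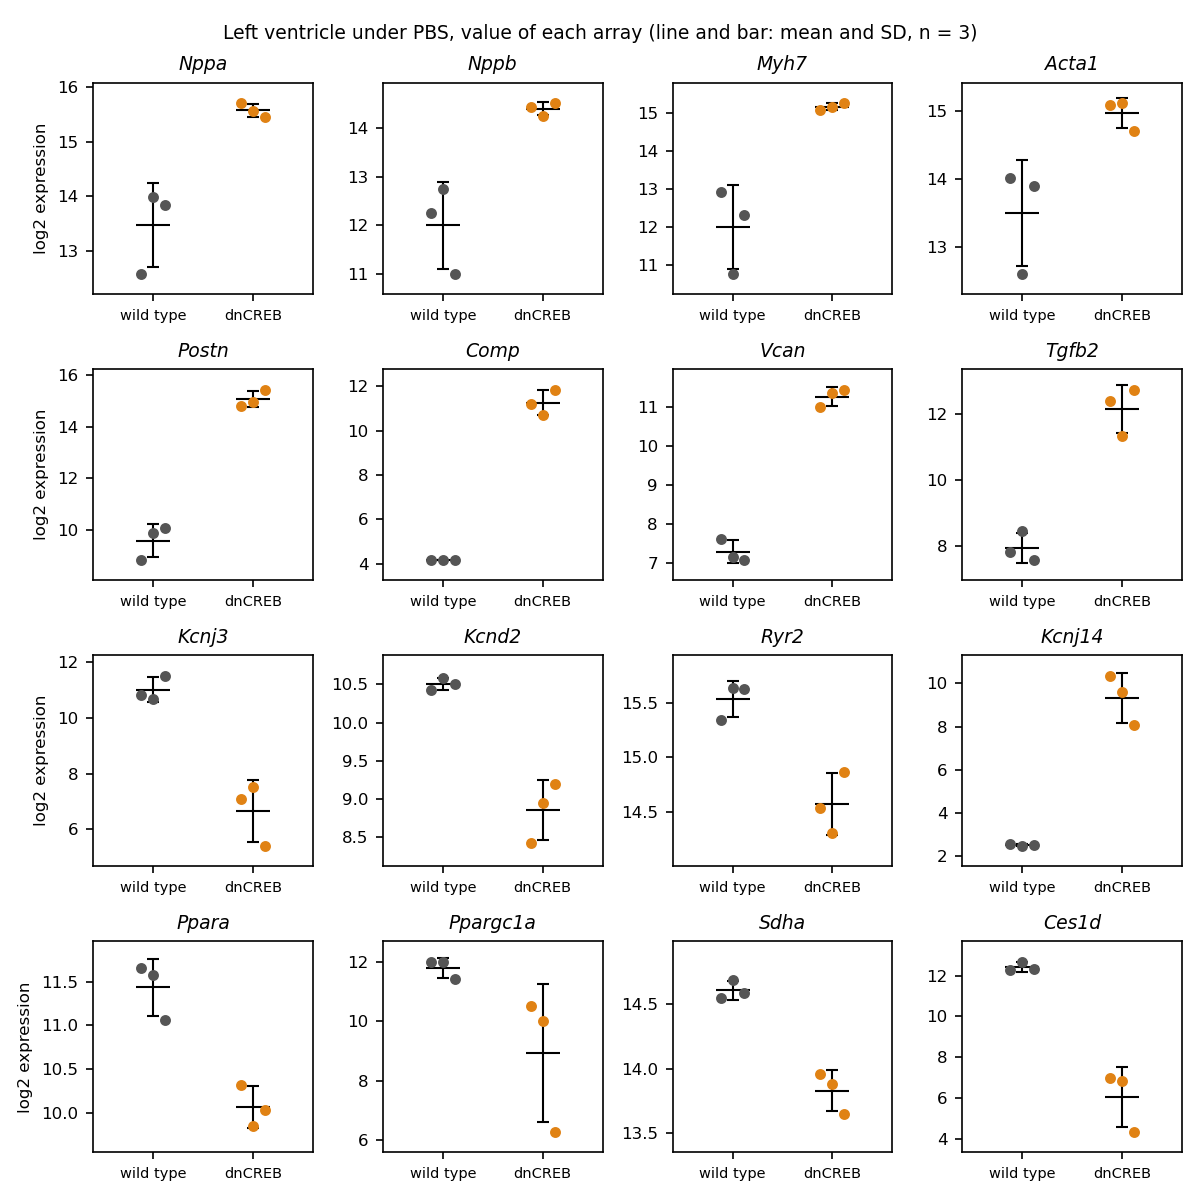
Log2 expression of 16 members in each PBS array, wild type in grey and dnCREB in orange, with the mean and SD (n = 3) as a line and bar, and a separate vertical scale in each panel. The 16 were chosen from the genes called, so that their groups lie apart follows from the choice. Groups lay apart for 1772 of the 1785 genes called and for 42.6% of all genes. The single dnCREB heart low in Ppargc1a and Ces1d is replicate 3.

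The extracellular matrix held many of the largest rises. Over 5 lists of matrix genes, 47 of 90 measured members rose and 2 fell, with a median of 1.32. With the sex class 31 rose and 0 fell, with a median of 2.02. Comp, a pentameric glycoprotein of cartilage and tendon, read 4.18, 4.18 and 4.19 in the wild-type hearts and 11.19, 10.72 and 11.85 in the dnCREB hearts. Every dnCREB heart was far above the wild-type hearts, by 7.07 ± 0.30 (adjusted p = 8.9e-07). The wild-type values were flat and close to the level of 4, also under PM at 4.77, 4.14 and 4.16, so the difference may understate the fold, and whether this is the floor of the probe set was not tested. Ltbp2, a microfibril protein, read 1.66, 2.72 and 2.74 in the wild-type hearts and 8.81, 9.17 and 10.01 in the dnCREB hearts. As its wild-type hearts lay under the level of 4 that counts as measured, the rise is given against that level, as at least 40.3-fold (adjusted p = 4.1e-06). Postn, periostin, the product of activated cardiac fibroblasts, read 8.83, 9.85 and 10.05 in the wild-type hearts and 14.82, 14.95 and 15.44 in the dnCREB hearts. It was higher in all 3 dnCREB hearts, by 5.49 ± 0.48 (adjusted p = 0.00012).

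Matricellular and cartilage-like proteins rose in 11 of 17 measured members and fell in 0, with a median of 1.69. Beside Comp and Postn they included Ccn5, a CCN family protein that read 2.55, 2.33 and 2.55 in the wild-type hearts and 9.82, 8.61 and 9.01 in the dnCREB hearts, at least 35.5-fold (adjusted p = 3.9e-06). Cilp, a cartilage protein that fibroblasts of the stressed heart secrete, read 5.55, 5.53 and 5.55 in the wild-type hearts and 10.20, 10.25 and 11.84 in the dnCREB hearts. Its dnCREB hearts were all higher, by 5.22 ± 0.38 (adjusted p = 3.8e-05). Its wild-type hearts were flat here and under PM, at 5.53, 5.50 and 5.55, and whether this is the floor of its probe set was not tested. Thbs4, a thrombospondin of the stretched heart, rose by 2.96, and Ccn2, connective tissue growth factor, by 1.76. Ccn2 was uneven, at 12.14, 12.95 and 13.39 in wild type and 14.59, 13.92 and 15.25 in dnCREB, with no overlap. The count became 7 without dnCREB replicate 3 and 4 with the sex class.

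Collagen chains rose in 11 of 20 and fell in 0, with a median of 1.51, or 1.36 where the 4 members under the measured level in a group are set to that level. Col8a1, a short-chain collagen of vessel walls, read 8.46, 9.79 and 9.87 in the wild-type hearts and 12.78, 13.29 and 13.04 in the dnCREB hearts. It was higher in all 3 dnCREB hearts by 3.66 ± 0.45 (adjusted p = 0.00063). The basement membrane chains Col4a1 and Col4a4 rose by 0.88 and 2.80, and the fibrillar chain Col5a2 by 1.90. The count became 7 without wild-type replicate 3, and the sex covariate left 10, at a median of 2.98.

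Among matrix proteoglycans 8 of 16 rose and 0 fell, with a median of 0.95. Vcan, the large provisional-matrix proteoglycan versican, read 7.63, 7.15 and 7.09 in the wild-type hearts and 11, 11.36 and 11.46 in the dnCREB hearts. The groups were far apart, by 3.98 ± 0.32 (adjusted p = 6.8e-05). Decorin (Dcn), a small proteoglycan that is abundant in any heart, read 13.90, 13.92 and 13.87 in the wild-type hearts and 14.67, 14.61 and 14.46 in the dnCREB hearts. Its rise of 0.68 ± 0.10 (adjusted p = 0.0015) was small and even, with each group spanning less than the gap between them. Prelp rose by 1.89 and Cspg4, a pericyte proteoglycan, by 2.08. Under the sex covariate the list gave 6 higher, with a median of 1.81.

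Elastic fibre and microfibril genes rose in 10 of 14 and fell in 1 (7.14%, beside 5.50% of all genes), with a median of 1.51. Mfap4, a microfibril-associated glycoprotein, read 3.16, 4.19 and 2.96 in the wild-type hearts and 8.99, 9.39 and 9.99 in the dnCREB hearts. All dnCREB hearts were higher, and as 2 of the wild-type hearts lay under the level of 4, the difference is given with those 2 set to it, as at least 5.39 (adjusted p = 0.00025). Fbln2, fibulin 2, rose by 2.53 ± 0.28 (adjusted p = 0.00035). Mfap5 rose by 2.88 on the probe set used here, and its other one read 2.94, 2.83 and 2.20 in wild type and 8.19, 8.75 and 10.52 in dnCREB. Emilin2 went the other way, at 9.97, 10.46 and 10.38 in wild type and 7.37, 6.29 and 7.49 in dnCREB, a fall of 3.22 ± 0.47 (adjusted p = 0.0015). The sex covariate left 5 higher and 0 lower.

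Enzymes that crosslink and remodel the matrix were also called mostly upward, with a median of 0.61. Of 23 members 7 were higher (30.4%, beside 13% of all genes) and 1 lower (4.35%, beside 5.50%). Loxl3, a lysyl oxidase, read 6.05, 6.39 and 6.50 in the wild-type hearts and 8.54, 8.63 and 9.52 in the dnCREB hearts. It rose by 2.58 ± 0.28 (adjusted p = 0.00035), its relative Loxl1 by 2.09, and Pcolce2, an enhancer of procollagen processing, by 2.12. Adamtsl2, a microfibril-associated protein, rose by 2.28 ± 0.27 (adjusted p = 0.00059). Timp4, the metalloproteinase inhibitor typical of heart, read 11.39, 10.43 and 10.51 in the wild-type hearts and 7.92, 8.16 and 8.18 in the dnCREB hearts. It fell in every dnCREB heart, by 2.69 ± 0.51 (adjusted p = 0.0053). The sex-class fit gave 6 higher and 0 lower.

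Ligands of the TGF-beta family rose too. Of 23 measured ligands, receptors and inhibitors 12 rose and 0 fell, with a median of 0.80. Tgfb2 read 7.81, 8.46 and 7.58 in the wild-type hearts and 12.39, 11.35 and 12.75 in the dnCREB hearts. Tgfb3 read 5.71, 5.69 and 5.66 in the wild-type hearts and 9.84, 9.01 and 10.44 in the dnCREB hearts. Both ligands were higher in all dnCREB hearts, by 4.21 ± 0.34 (adjusted p = 7.2e-05) and 4.08 ± 0.44 (adjusted p = 0.00032), and dnCREB replicate 2 was the lowest of the 3 for each. Fstl1, a secreted follistatin-like protein of stromal cells, rose by 2.47 ± 0.22 (adjusted p = 0.00012), and Tgfbi, a matrix protein induced by TGF-beta, by 1.69 ± 0.19 (adjusted p = 0.00042). The count of 12 became 7 without wild-type replicate 1, 6 without wild-type replicate 3 and 4 without dnCREB replicate 3, and was 4 with the sex class.

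Secreted Wnt modulators were among the large rises. In the Wnt list 6 of 12 measured members rose and 0 fell, with a median of 0.67. Sfrp2, a secreted frizzled-related protein, read 2.43, 2.39 and 2.44 in the wild-type hearts and 9.27, 7.78 and 8.91 in the dnCREB hearts, at least 25.2-fold (adjusted p = 0.013). Dkk3 read 3.53, 3.47 and 3.66 in the wild-type hearts and 8.21, 7.63 and 8.88 in the dnCREB hearts, at least 18.9-fold (adjusted p = 0.00015). All wild-type hearts were below the level of 4 and all dnCREB hearts well above it for both. Frzb, another frizzled-related decoy, rose by 3.43 ± 0.38 (adjusted p = 0.00035), Sfrp1 by 2.99 and the receptor Fzd1 by 1.59. Under the sex covariate the list gave 3 higher, and 1 member fell without dnCREB replicate 2.

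Growth factors and their binding proteins rose in 12 of 27 and fell in 2 (7.41%, beside 5.50% of all genes), with a median of 0.74. Pdgfc, a platelet-derived growth factor that acts on fibroblasts, read 6.86, 7.01 and 5.69 in the wild-type hearts and 9.51, 9.79 and 9.67 in the dnCREB hearts. It was higher in all dnCREB hearts by 3.14 ± 0.41 (adjusted p = 0.00086), and Pdgfd rose by 1.52. The insulin-like growth factor binding proteins Igfbp6 and Igfbp7 rose by 1.97 and 1.35. The 2 that fell were Ctf1, cardiotrophin 1 (-0.88), and Vegfb, a vascular factor made by cardiomyocytes (-0.58). The falls became 1 without wild-type replicate 2 or 3 or dnCREB replicate 3, and with the sex class 5 rose and 0 fell.

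**Figure D3:**
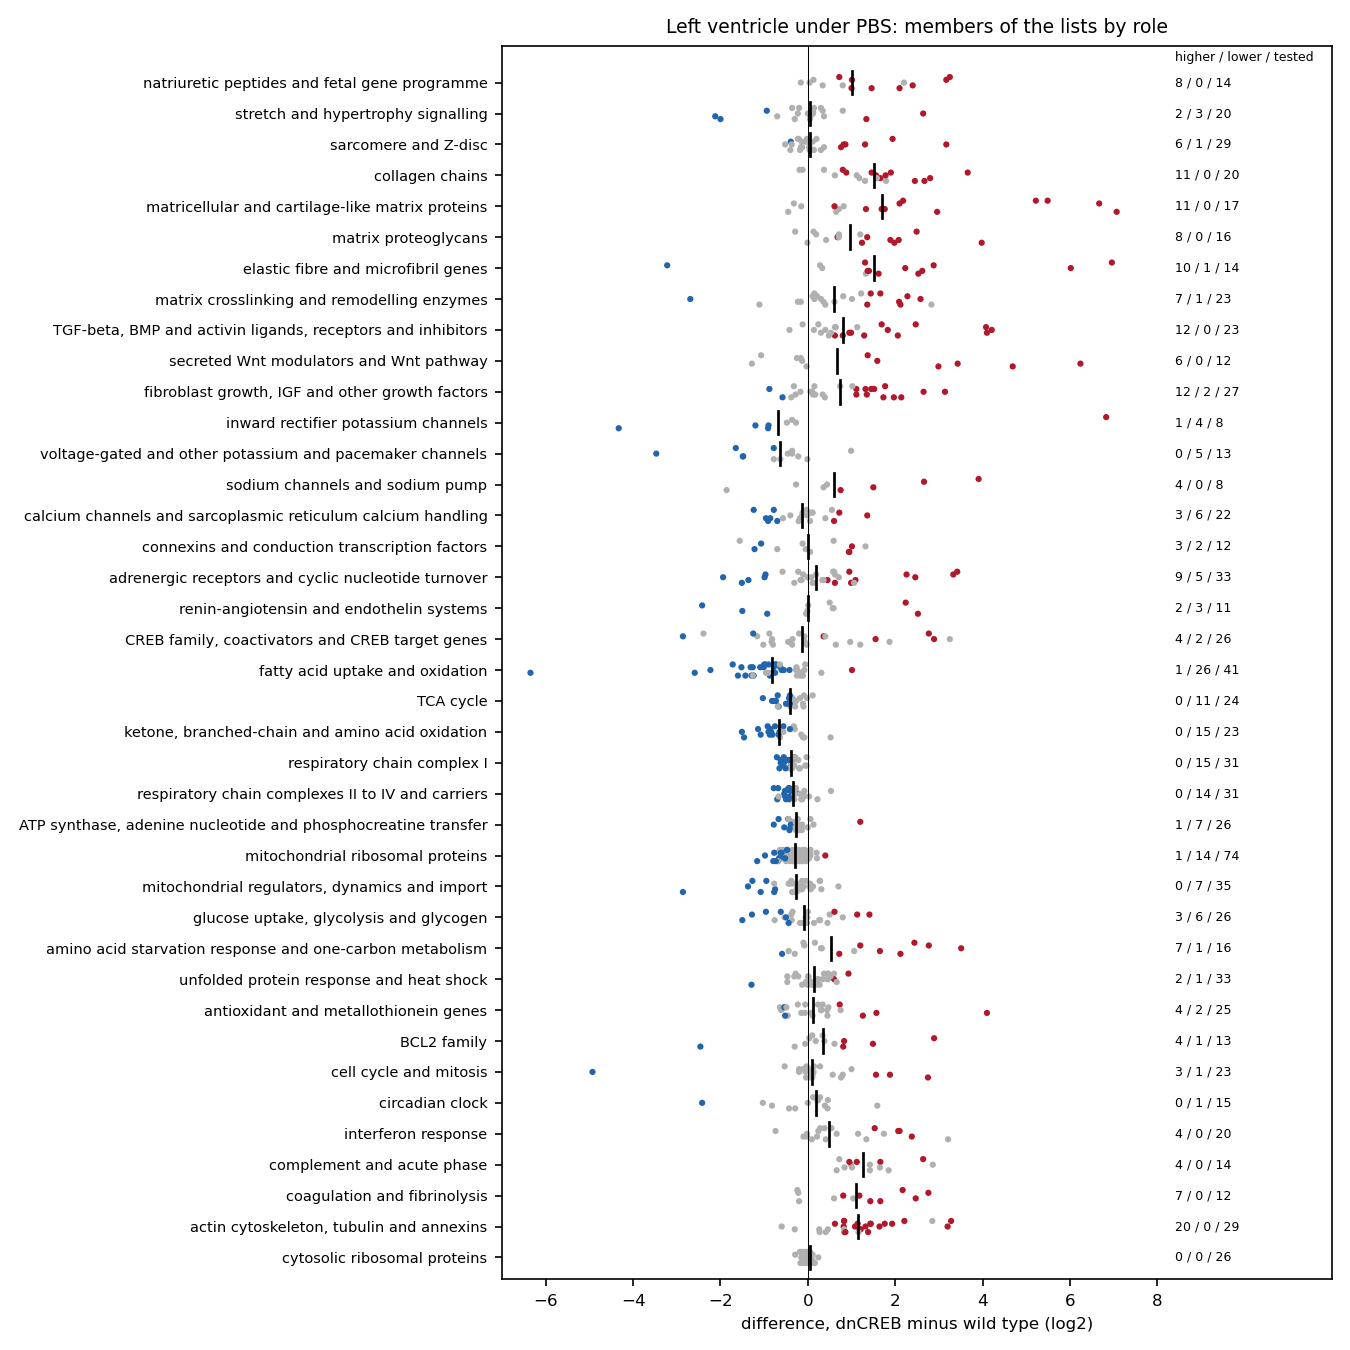
Difference, dnCREB minus wild type (log2), of each measured member of the 39 lists by role, red where called higher, blue where called lower and grey where not called, with the list median as a black line and the counts at the right. Matrix and cytoskeletal lists lie to the right, oxidative lists to the left and the 26 cytosolic ribosomal proteins at 0.

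Markers of the cell types in the ventricle were read next, and several of them also stand on the matrix lists above. They include Col1a1, Col1a2, Dcn, Lum and Mfap5 for fibroblasts and Postn and Ccn2 for myofibroblasts. Cspg4 for pericytes and Comp and Thbs4 for chondrocytes are shared too. The marker counts are therefore not separate from the matrix counts. Fibroblast markers rose in 11 of 12 measured members and fell in 0, with a median of 1.32, and 6 rose with the sex class. The 11 became 8 or 9 when any 1 of the 6 arrays was left out. They became 10 with centred arrays or with only the 6 PBS arrays. The mean over these markers lay between 10.69 and 10.98 in the wild-type hearts and between 12.22 and 12.45 in the dnCREB hearts. Pdgfra, the receptor that marks cardiac fibroblasts, read 10.56, 10.59 and 10.58 in the wild-type hearts and 11.66, 11.69 and 11.83 in the dnCREB hearts. Each group was tight and the groups were apart, with a rise of 1.15 ± 0.21 (adjusted p = 0.0048). Pi16, a marker of adventitial fibroblasts, rose by 2.28. In bulk tissue more cells of a type and more RNA per cell cannot be told apart, and the part of the fibroblast markers in the matrix results was not tested.

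Myofibroblast and smooth muscle markers rose in 5 of 10, with a median of 0.58. Meox1, a transcription factor of activated fibroblasts, read 3.38, 3.55 and 3.80 in the wild-type hearts and 7.75, 7.87 and 8.45 in the dnCREB hearts, at least 16.2-fold (adjusted p = 0.00068), and the actin-binding protein Tagln rose by 1.24. The 5 became 2 without wild-type replicate 1, 3 without wild-type replicate 2, dnCREB replicate 1 or dnCREB replicate 3 or with only the 6 PBS arrays, and 2 with the sex class. Endocardial and lymphatic markers rose in 4 of 7, with a median of 1.44. Plvap, a diaphragm protein of fenestrated and endocardial endothelium, read 7.39, 6.62 and 4.79 in the wild-type hearts and 9.75, 10.33 and 10.86 in the dnCREB hearts. It was higher in all dnCREB hearts by 4.05 ± 0.63 (adjusted p = 0.002), and Npr3, the natriuretic peptide clearance receptor of the endocardium, rose by 2.24. Pdpn and Cytl1 rose by 1.89 and 1.44, and the 4 became 2 without wild-type replicate 3 or dnCREB replicate 1 and 0 with the sex class.

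General endothelial markers gave no call among 14 members, with a median of 0.03, and 2 had an unadjusted p under 0.05, while 2 were called lower with centred arrays or quantile normalization and 1 with only the 6 PBS arrays. The mean over them lay between 10.89 and 11.13 in wild type and between 10.71 and 11.19 in dnCREB. Pericyte markers gave 1 higher (Cspg4) and 1 lower (Abcc9) of 8, with a median of -0.03. That is 12.5% in either direction, beside 13% higher and 5.50% lower among all genes. Ventricular cardiomyocyte markers gave 1 higher (Nppa, 7.69%) and 2 lower (Ryr2 and Cox6a2, 15.4%) of 13, with a median of -0.16, and 5 lower with centred arrays. The 2 falls became 3 without wild-type replicate 1 and 1 without wild-type replicate 2 or 3 or dnCREB replicate 2 or 3 and with only the 6 PBS arrays. Of the atrial markers the defining Myl7, Sln and Bmp10 were below the filter. Dkk3, Myl4 and Nppa rose among the 5 measured, and Kcnj3 and Stard10, a lipid transfer protein named after its values were seen, fell, with Stard10 losing its call without any 1 wild-type heart or dnCREB replicate 3. With only the 6 PBS arrays 1 atrial marker fell. Macrophage markers gave 1 call of 15 (6.67%, beside 13% of all genes called higher), the growth factor receptor Csf1r (1.03), and a median of 0.78. Their mean ranged from 8.28 to 9.61 in wild type and from 9.10 to 10.32 in dnCREB, and the single call was lost with centred arrays and with quantile normalization, while 5 were called without wild-type replicate 1, 3 without dnCREB replicate 2 and 0 without any 1 of the other 4 arrays. Chondrocyte and tendon markers rose in 2 of 4, Comp and Thbs4, with 1 under the sex covariate. Skeletal muscle markers rose in 1 of 5, Acta1 (20%, beside 13% of all genes). The Acta1 call was lost without wild-type replicate 2 or any 1 dnCREB heart and with only the 6 PBS arrays. limma called 0 of the measured lymphocyte (4), neutrophil and mast cell (2), erythroid (1), adipocyte (4), mesothelial (3), Schwann cell and neuron (3) and lung epithelium (1) markers, whose medians lay between -0.49 and 0.25, and 7 of these 18 had an unadjusted p under 0.05. The sex covariate left 0 of the cardiomyocyte, pericyte, macrophage and skeletal muscle markers called apart from 1 atrial one.

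**Figure D4:**
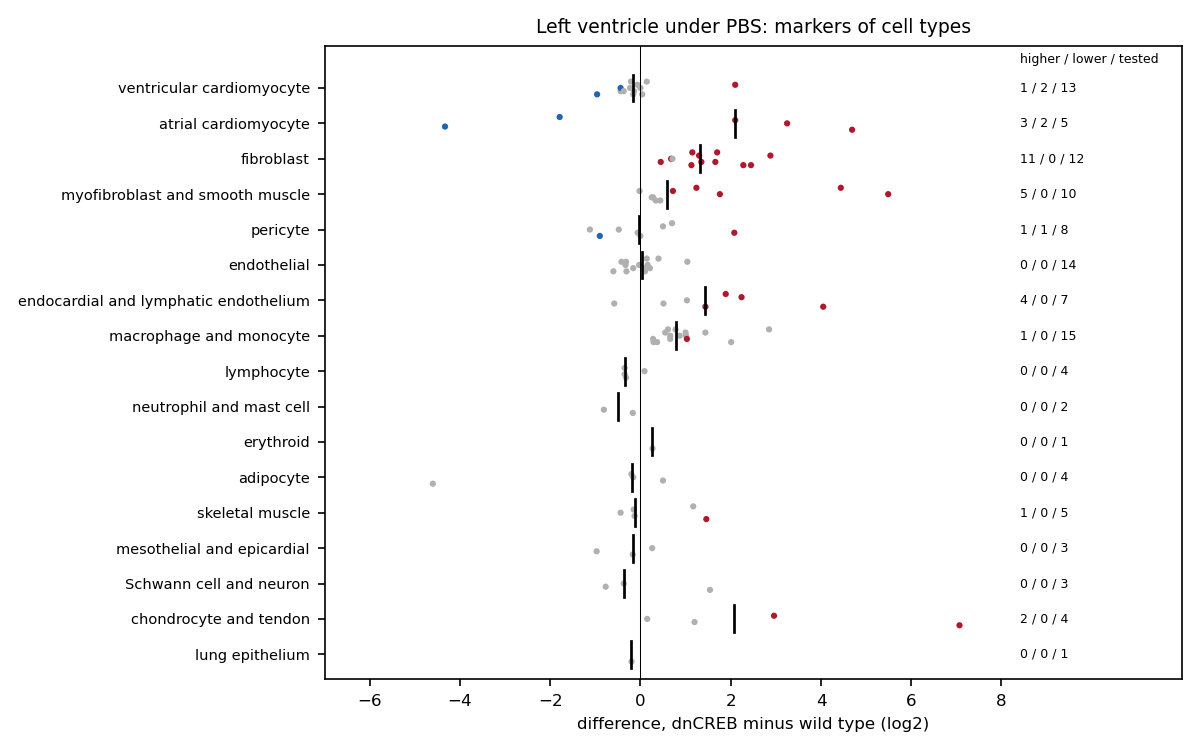
Difference, dnCREB minus wild type (log2), of each measured marker of 17 cell type lists, red where called higher, blue where called lower and grey where not called, with the list median as a black line and the counts at the right. Of the fibroblast markers 11 of 12 are red, and the 14 endothelial markers are grey.

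Potassium channel genes fell, with 1 large exception. Of 8 measured inward rectifiers and their regulatory subunits, 4 fell (50%, beside 5.50% of all genes) and 1 rose (12.5%, beside 13%), with a median of -0.69. Kcnj3, a pore subunit of the acetylcholine-activated current, read 10.83, 10.68 and 11.51 in the wild-type hearts and 7.10, 7.51 and 5.41 in the dnCREB hearts. Its partner Kcnj5 read 10.98, 10.80 and 11.20 in the wild-type hearts and 10.07, 9.89 and 9.40 in the dnCREB hearts. Both were lower in all dnCREB hearts, with differences of -4.33 ± 0.60 (adjusted p = 0.0011) and -1.20 ± 0.19 (adjusted p = 0.0023), and dnCREB replicate 3 was the lowest for both. The ATP-sensitive channel subunits Abcc8 and Abcc9 fell by 0.91 and 0.90. Kcnj14, a rectifier more typical of neurons, read 2.55, 2.46 and 2.51 in the wild-type hearts and 10.36, 9.58 and 8.06 in the dnCREB hearts. It was at least 40.4-fold higher (adjusted p = 0.005), with the dnCREB hearts well apart from each other and from the wild-type hearts. The sex covariate left 0 higher and 1 lower.

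Of 13 other potassium and pacemaker channel genes 5 fell and 0 rose, with a median of -0.63. Kcnd2, a pore of the transient outward current, read 10.42, 10.58 and 10.51 in the wild-type hearts and 8.42, 8.95 and 9.20 in the dnCREB hearts. It was lower in all dnCREB hearts, by 1.65 ± 0.24 (adjusted p = 0.0013). The delayed rectifier pores Kcnh2 and Kcnq1, which end the action potential, fell by 1.49 and 1.48, and the background channel Kcnk3 by 0.78. The sex-class fit gave 1 lower. The sodium list rose in 4 of 8 and fell in 0, with a median of 0.59. Fxyd6, a regulator of the sodium pump, read 7.09, 7.09 and 7.95 in the wild-type hearts and 11.13, 11.55 and 11.17 in the dnCREB hearts. Its rise was 3.91 ± 0.32 (adjusted p = 7.2e-05), and another pump regulator, Fxyd5, rose by 2.66, the sodium-sensing channel Scn7a by 1.5 and the pump subunit Atp1b1 by 0.75. Under the sex covariate the list gave 1 higher, and with only the 6 PBS arrays 1 member was also lower.

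The calcium release and entry channels fell. Of 22 measured members 6 fell (27.3%, beside 5.50% of all genes) and 3 rose (13.6%, beside 13%), with a median of -0.13. Ryr2, the release channel of the sarcoplasmic reticulum, read 15.34, 15.63 and 15.62 in the wild-type hearts and 14.54, 14.31 and 14.87 in the dnCREB hearts. Cacna1c, the pore of the L-type calcium channel, read 12.23, 12.60 and 12.69 in the wild-type hearts and 11.75, 11.59 and 11.85 in the dnCREB hearts. Both were lower in all dnCREB hearts, with differences of -0.96 ± 0.18 (adjusted p = 0.0048) and -0.78 ± 0.14 (adjusted p = 0.0046). The luminal calcium-binding protein Hrc fell by 1.24 and the junctional protein Jph1 by 0.86. Atp2a2, the calcium pump SERCA2, read 15.52, 15.69 and 15.59 in the wild-type hearts and 15.50, 15.45 and 15.32 in the dnCREB hearts. On this probe set the groups nearly met and it did not pass (-0.18, adjusted p = 0.25). Its 5 other probe sets were all lower in dnCREB, with differences from -1.99 to -0.28, and 4 of them passed by limma over all probe sets. The one with the largest difference read 10.37, 10.49 and 11.52 in wild type and 8.71, 9.55 and 8.14 in dnCREB. Whether this pump is called depends on the probe set. Its inhibitor Pln did not pass (-0.21, adjusted p = 0.15). Asph, the plasma membrane pump Atp2b1 and the SERCA3 gene Atp2a3 rose by 0.60, 0.72 and 1.36. The 3 rises became 0 without wild-type replicate 1 or 3 or dnCREB replicate 3, the 6 falls became 3 without wild-type replicate 3 or dnCREB replicate 2 or 3, and with the sex class limma called 0 in either direction.

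Connexins and transcription factors of conduction were split, with 3 of 12 higher (25%, beside 13% of all genes) and 2 lower (16.7%, beside 5.50%). Their median was 0.00. The connexins Gjc1 and Gja3 changed by 1.01 and -1.22, and the cardiac transcription factors Tbx20, Irx3 and Hand2 by 0.94, 0.95 and -1.07. The falls became 1 when any of the 6 arrays was left out, since Hand2 then lost its call, and limma called 0 with the sex class.

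Adrenergic and cyclic nucleotide genes, which lie upstream of CREB, were reshuffled. Of 33 measured members 9 rose (27.3%, beside 13% of all genes) and 5 fell (15.2%, beside 5.50%), with a median of 0.19. Adcy7, an adenylyl cyclase more typical of non-muscle cells, read 7.89, 7.77 and 8.14 in the wild-type hearts and 10.77, 11.37 and 11.64 in the dnCREB hearts. Adcy6, a main cyclase of the cardiomyocyte, read 11.80, 11.69 and 11.88 in the wild-type hearts and 10.59, 10.75 and 11.05 in the dnCREB hearts. The first was higher and the second lower in all dnCREB hearts, by 3.33 ± 0.30 (adjusted p = 0.00013) and -0.99 ± 0.23 (adjusted p = 0.014). Among phosphodiesterases Pde3b rose by 2.26 while Pde3a, Pde4d and Pde7a fell by 1.94, 1.36 and 0.97. Gnai1, an inhibitory G protein, read 7.02, 5.60 and 4.59 in the wild-type hearts and 9.37, 9.08 and 9.01 in the dnCREB hearts, a rise of 3.42 ± 0.63 (adjusted p = 0.0048), and Gnai2 rose by 0.62. The 5 falls became 3 without wild-type replicate 1 or dnCREB replicate 3 and 2 without wild-type replicate 3, centred arrays gave 6 and 7, and the sex class 2 and 1.

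In the renin-angiotensin and endothelin list 2 of 11 rose (18.2%, beside 13% of all genes) and 3 fell (27.3%, beside 5.50%), with a median of 0.01. Ace, angiotensin-converting enzyme, read 8.75, 8.53 and 8.52 in the wild-type hearts and 11.01, 11.40 and 10.95 in the dnCREB hearts. Its rise of 2.52 ± 0.14 (adjusted p = 4.3e-06) was among the most even of the set, with little spread within either group. Agtr1a, the angiotensin receptor, read 9.51, 9.47 and 9.07 in the wild-type hearts and 8.21, 8.25 and 7.09 in the dnCREB hearts. It was lower in all dnCREB hearts, by 1.5 ± 0.29 (adjusted p = 0.0061), as were the mineralocorticoid receptor Nr3c2 (-0.93) and Corin (-2.42), the protease that matures the natriuretic peptides, while the clearance receptor Npr3 rose. The sex covariate left 1 higher and 0 lower.

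Genes of mitochondrial energy metabolism fell as a block of many small changes. Over 8 lists and 281 measured genes, 106 fell and 3 rose, and 254 had a negative difference, with a median of -0.36, beside 3989 of 9661 genes (41.3%) below 0 among all tested. With the sex class 10 fell and 0 rose, at a median of -0.44, and in a fit of only the 6 PBS arrays 83 fell and 2 rose. That fit moved several of the lists below: complex I to 7 falls, complexes II to IV to 6, ATP synthase to 4, and the 1 rise among fatty acid genes to 0.

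Of these lists fatty acid uptake and oxidation had the lowest median, -0.81, with 26 of 41 lower and 1 higher. Ces1d, a lipid hydrolase, read 12.25, 12.67 and 12.30 in the wild-type hearts and 6.99, 6.84 and 4.35 in the dnCREB hearts. It was the largest fall among the genes tested, with a difference of -6.35 ± 0.87 (adjusted p = 0.0011), and dnCREB replicate 3 was far below the other 2. Echs1, the enoyl-CoA hydratase of beta oxidation, read 13.05, 13.33 and 13.24 in the wild-type hearts and 12.20, 12.31 and 12.10 in the dnCREB hearts. Its groups were tight and apart, by -1.0 ± 0.11 (adjusted p = 0.00044). Dgat2, which makes triglyceride, and Slc27a1, a fatty acid importer, fell by 2.23 and 1.72. Cpt1a, the liver-type and fetal carnitine palmitoyltransferase, was the 1 that rose, by 1.01 ± 0.29 (adjusted p = 0.037), and it lost its call without wild-type replicate 2 or dnCREB replicate 2 or 3. The sex-class fit gave 3 lower and 0 higher, with a median of -1.05.

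Genes that oxidise ketones, branched-chain and other amino acids fell too, in 15 of 23 members with 0 rises and a median of -0.67. Bckdhb, a subunit of the branched-chain ketoacid dehydrogenase, read 12.26, 12.51 and 12.18 in the wild-type hearts and 10.90, 10.77 and 10.74 in the dnCREB hearts. Dbt, another subunit, read 12.09, 12.43 and 12.25 in the wild-type hearts and 11.17, 10.86 and 10.35 in the dnCREB hearts. Both were lower in all dnCREB hearts, by -1.51 ± 0.15 (adjusted p = 0.00024) and -1.46 ± 0.18 (adjusted p = 0.00071). The propionyl-CoA carboxylase subunit Pccb fell by 0.90 and the thiolase Acat1 by 0.84. The count became 9 without wild-type replicate 2 or dnCREB replicate 3 and was 3 with the sex class.

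The TCA cycle fell in 11 of 24 and rose in 0, with a median of -0.40. Suclg2, a succinyl-CoA ligase subunit, read 13.74, 13.68 and 13.44 in the wild-type hearts and 12.79, 12.61 and 12.37 in the dnCREB hearts. It was lower by 1.03 ± 0.14 (adjusted p = 0.0012), its partner Suclg1 by 0.73, the shared dehydrogenase subunit Dld by 0.82 and the succinate dehydrogenase subunit Sdha by 0.78. The count became 7 without wild-type replicate 2 or 3, 6 without dnCREB replicate 3, 17 with centred arrays and 3 with the sex class.

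Genes of the respiratory chain each changed by less than 2-fold. Complex I fell in 15 of 31 with a median of -0.38, complexes II to IV and their carriers in 14 of 31 with a median of -0.33, and neither rose in any member. Ndufs1, the largest subunit of complex I, read 14.15, 14.34 and 14.27 in the wild-type hearts and 13.75, 13.62 and 13.52 in the dnCREB hearts. Uqcrc1, a core subunit of complex III, read 14.23, 14.57 and 14.34 in the wild-type hearts and 13.90, 13.94 and 13.74 in the dnCREB hearts. Cox7a1, the muscle form of a complex IV subunit, read 15.17, 15.30 and 15.06 in the wild-type hearts and 14.79, 14.71 and 14.42 in the dnCREB hearts. For each of the 3 the lowest wild-type heart was above the highest dnCREB heart, and the differences were -0.62 ± 0.10 (adjusted p = 0.0028), -0.52 ± 0.11 (adjusted p = 0.011) and -0.54 ± 0.13 (adjusted p = 0.016). Ndufs4, Ndufa7 and Ndufa8 changed by -0.71, -0.62 and -0.55, and Uqcrq and Cox6a2 by -0.50 and -0.44. The counts moved with the scaling: complex I had 28 falls with centred arrays, 12 with quantile normalization and 0 with the sex class, and complexes II to IV had 21, 13 and 1. Complex I became 9 without wild-type replicate 1, 8 without wild-type replicate 3 or dnCREB replicate 2, and 3 without wild-type replicate 2 or dnCREB replicate 3, and complexes II to IV became 9, 6, 8, 3 and 3 without wild-type replicate 1, wild-type replicate 3, dnCREB replicate 2, wild-type replicate 2 and dnCREB replicate 3.

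In the list of ATP synthase and energy transfer 7 of 26 fell and 1 rose, with a median of -0.27. Atp5e and Atp5g2, a central-stalk and a ring subunit, fell by 0.78 and 0.67, and Atp5d and Atp5j by 0.54 and 0.39. Ckb, the brain and fetal creatine kinase, read 9.74, 10.49 and 10.31 in the wild-type hearts and 11.32, 11.31 and 11.52 in the dnCREB hearts. It was the 1 that rose, by 1.20 ± 0.21 (adjusted p = 0.0037). The falls became 3 without wild-type replicate 2, dnCREB replicate 2 or dnCREB replicate 3, 4 without wild-type replicate 3, 18 with centred arrays and 0 with the sex class. Mitochondrial ribosomal proteins fell in 14 of 74 and rose in 1 (Mrpl20, 0.40), with a median of -0.28. Mrps28, Mrps31, Mrpl23 and Mrpl42 changed by -0.77, -0.73, -0.68 and -0.66. The falls became 7 without wild-type replicate 1 or 2 or dnCREB replicate 2 or 3, 9 without wild-type replicate 3, 29 with centred arrays, 21 with quantile normalization and 0 with the sex class, and Mrpl20 lost its call when any of the 6 arrays was left out.

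Regulators of mitochondria and their import and dynamics fell in 7 of 35 and rose in 0, with a median of -0.26. Ppara, the lipid-sensing receptor that drives fatty acid oxidation genes, read 11.66, 11.58 and 11.06 in the wild-type hearts and 10.32, 9.85 and 10.04 in the dnCREB hearts. It was lower in all dnCREB hearts by 1.37 ± 0.19 (adjusted p = 0.0011). Ppargc1a, the coactivator of mitochondrial biogenesis and a CREB target in other tissues, read 11.99, 11.98 and 11.41 in the wild-type hearts and 10.52, 9.99 and 6.28 in the dnCREB hearts. Its dnCREB hearts were all lower, with replicate 3 far below the other 2, and the difference was -2.86 ± 0.86 (adjusted p = 0.043). Its 4 other probe sets gave differences from -1.29 to -0.92, of which 2 passed over all probe sets. Esrra, the estrogen-related receptor of mitochondrial genes, read 10.27, 10.15 and 10.07 in the wild-type hearts and 9.96, 10 and 9.94 in the dnCREB hearts. Its dnCREB hearts were slightly lower and it did not pass (-0.20, adjusted p = 0.45), while its relative Esrrb fell by 0.95. The kinase Pink1 fell by 1.08 and the cristae protein Chchd3 by 0.77. The 7 falls became 4 without wild-type replicate 1 or 3, 3 without wild-type replicate 2, 14 with centred arrays and 1 with the sex class.

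Genes of glucose use went both ways. Of 26 measured members 6 fell (23.1%, beside 5.50% of all genes) and 3 rose (11.5%, beside 13%), with a median of -0.10. Slc2a4, the insulin-sensitive glucose transporter GLUT4, read 12.94, 12.94 and 13.01 in the wild-type hearts and 12.03, 12.21 and 11.77 in the dnCREB hearts. It was lower in all dnCREB hearts by 0.96 ± 0.19 (adjusted p = 0.0065), and glycogen synthase Gys1 and the muscle phosphofructokinase Pfkm fell by 0.62 and 0.50, while the transporter Slc2a12 was at least 1.77-fold lower. The platelet phosphofructokinase Pfkp, the glycogen-targeting subunit Ppp1r3c and the mutase Pgam1 rose by 1.41, 1.13 and 0.61. The 6 falls became 1 without wild-type replicate 2 or 3 or dnCREB replicate 3 and 2 without dnCREB replicate 2, the 3 rises became 1 without wild-type replicate 3 or dnCREB replicate 3 and 5 without dnCREB replicate 2, with the sex class 1 fell and 0 rose, and with only the 6 PBS arrays 3 fell and 2 rose.

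Genes of the amino acid starvation response rose in 7 of 16 (43.8%, beside 13% of all genes) and fell in 1 (6.25%, beside 5.50%). Their median was 0.52, or 0.31 with 3 members at the measured level in place of values under it. Nupr1, a stress-induced chromatin protein, read 5.87, 6.37 and 6.03 in the wild-type hearts and 9.51, 8.69 and 10.59 in the dnCREB hearts. Aldh18a1, which makes proline, the amino acid collagen is rich in, read 8.33, 7.76 and 7.99 in the wild-type hearts and 9.88, 10.51 and 10.04 in the dnCREB hearts. Both were higher in all dnCREB hearts, by 3.51 ± 0.44 (adjusted p = 0.00073) and 2.12 ± 0.29 (adjusted p = 0.0011). Nupr1 differed by 2.61 on its other probe set, whereas the 4 other probe sets of Aldh18a1 gave 0.48, 0.08, 0.56 and -0.18, of which the first alone passed by limma over all probe sets (adjusted p = 0.044). Slc7a5, a large neutral amino acid carrier, was at least 3.82-fold higher (adjusted p = 0.00074), and the transcription factor Atf5 rose by 1.20. The lipoprotein receptor Vldlr fell by 0.59. The rises became 4 without wild-type replicate 2 or 3, and with the sex class 1 rose and 1 fell.

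In the unfolded protein and heat shock list 2 of 33 rose (6.06%, beside 13% of all genes) and 1 fell (3.03%, beside 5.50%), with a median of 0.14. Herpud1, a degradation factor of the endoplasmic reticulum, read 13.58, 13.34 and 13.14 in the wild-type hearts and 11.95, 11.92 and 12.33 in the dnCREB hearts, a fall of 1.29 ± 0.18 (adjusted p = 0.0011), and the chaperones Pdia4 and Dnajb11 rose by 0.93 and 0.60. The 2 rises became 4 without wild-type replicate 1, 1 without dnCREB replicate 1, and 0 without wild-type replicate 2 or 3, dnCREB replicate 3, with the sex class or with only the 6 PBS arrays. Antioxidant genes gave 4 higher (16%, beside 13% of all genes) and 2 lower (8%, beside 5.50%) of 25, with a median of 0.11. Nox4, an NADPH oxidase induced by TGF-beta, read 2.26, 2.45 and 2.61 in the wild-type hearts and 5.71, 6.36 and 7.56 in the dnCREB hearts, at least 5.83-fold higher (adjusted p = 0.0013). The extracellular enzymes Gpx3 and Sod3 and the cytosolic Gpx1 rose by 1.26, 1.57 and 0.73, and the mitochondrial enzymes Sod2 and Prdx3 fell by 0.52 and 0.54. The 2 falls became 0 without wild-type replicate 1 or 2 and 1 without wild-type replicate 3 or dnCREB replicate 2 or 3 and with only the 6 PBS arrays, and with the sex class 1 rose and 0 fell.

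The BCL2 family gave 4 higher (30.8%, beside 13% of all genes) and 1 lower (7.69%, beside 5.50%) of 13, with a median of 0.34. The share of falls is thus near that of all genes. Bcl2 read 6.60, 7.37 and 7.01 in the wild-type hearts and 9.99, 9.34 and 10.33 in the dnCREB hearts. Bcl2l11, the death-promoting protein BIM, read 9.26, 9.30 and 9.64 in the wild-type hearts and 6.73, 6.87 and 7.23 in the dnCREB hearts. The survival factor was higher and the death factor lower in all dnCREB hearts, by 2.89 ± 0.34 (adjusted p = 0.00052) and -2.46 ± 0.32 (adjusted p = 0.00086). Bcl2 differed on the first of its other probe sets too, by 3.56, and by 0.09 on the second. Bcl2l2 rose by 0.83, and Bok and Bad, which promote cell death, by 1.49 and 0.81. Under the sex covariate the list gave 1 higher and 1 lower. Cell cycle genes gave 3 higher (13%, as among all genes) and 1 lower (4.35%, beside 5.50%) of 23, with a median of 0.10. Of the 41 listed, 17 were below the filter. The cyclins Ccnd1 and Ccnd2 rose by 2.75 and 1.88 and the inhibitor Cdkn2c by 1.56. Cenpf, a kinetochore protein, read 4.33, 6.78 and 10.07 in the wild-type hearts and 2.22, 2.13 and 2.05 in the dnCREB hearts. Its wild-type hearts were widely spread and its dnCREB hearts all lower, and the fall was at least 8.33-fold (adjusted p = 0.013). The 3 rises became 5 without dnCREB replicate 1 and 1 with the sex class, and the fall became 0 with only the 6 PBS arrays.

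Of 15 clock genes 1 fell (6.67%, beside 5.50% of all genes), with a list median of 0.19. It was Hlf, at 6.02, 7.69 and 6.17 in wild type and 4.12, 3.72 and 4.77 in dnCREB, a difference of -2.42 ± 0.52 (adjusted p = 0.01). Hlf lost its call with the sex class, and 1 clock gene rose without dnCREB replicate 1. Interferon response genes rose in 4 of 20, beside 13% of all genes, with a median of 0.48. Ifit2 read 6.77, 7.95 and 7.14 in the wild-type hearts and 9.64, 8.70 and 10.67 in the dnCREB hearts, a rise of 2.38 ± 0.47 (adjusted p = 0.0065), and dnCREB replicate 3 was the highest and replicate 2 the lowest of the dnCREB hearts for Ifit2, Oasl2 (2.10), Ifih1 (1.53) and Ifi27l2a (2.07). The 4 became 2 without wild-type replicate 2, 7 without dnCREB replicate 2, 1 with only the 6 PBS arrays and 0 with the sex class. Complement and acute phase genes rose in 4 of 14 (28.6%, beside 13% of all genes), with a median of 1.27. They were Serping1 (1.12), C1ra (0.95), Lbp (2.64) and Cp (1.66), and the 4 became 1 without wild-type replicate 2 or dnCREB replicate 3, 0 without wild-type replicate 3, 2 without dnCREB replicate 1 or 2, 2 with centred arrays or quantile normalization, and 1 with the sex class.

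Coagulation and fibrinolysis genes rose in 7 of 12, with a median of 1.11. Plat, the tissue plasminogen activator, read 9.72, 9.79 and 10.11 in the wild-type hearts and 11.37, 11.45 and 11.76 in the dnCREB hearts. It was higher in all dnCREB hearts by 1.66 ± 0.17 (adjusted p = 0.00025), and Fgl2, a prothrombinase of inflamed vessels, by 2.17 ± 0.26 (adjusted p = 0.00059). Serpinf1, a secreted inhibitor of vessel growth, rose by 2.76 and Procr, the protein C receptor, by 2.47. The sex covariate left 3 higher.

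Cytoskeletal genes rose widely. Of 29 measured actins, tubulins, annexins and their partners 20 rose and 0 fell, with a median of 1.14. S100a6, a calcium-binding protein of fibroblasts and proliferating cells, read 11.71, 11.62 and 11.47 in the wild-type hearts and 13.31, 13.72 and 13.57 in the dnCREB hearts. Its relative S100a4, a fibroblast protein, read 6.17, 6.80 and 6.36 in the wild-type hearts and 9.45, 9.48 and 9.99 in the dnCREB hearts. Both were higher in all dnCREB hearts, by 1.93 ± 0.18 (adjusted p = 0.00015) and 3.20 ± 0.46 (adjusted p = 0.0013). Anxa1, an annexin that restrains inflammation, rose by 1.64 ± 0.19 (adjusted p = 0.00045) and the integrin adaptor Tln1 by 0.83 ± 0.11 (adjusted p = 0.0011). The sex-class fit gave 6 higher, with a median of 1.12. For comparison, limma called 0 of 26 cytosolic ribosomal proteins, with 0 at an unadjusted p under 0.05, and their differences ran from -0.29 to 0.24 with a median of 0.05. Centred arrays moved the falls from 1 to 3 in the sarcomere and the unfolded protein lists, from 2 to 4 among antioxidant genes, from 1 to 2 in the starvation response and from 0 to 1 among Wnt, sodium, cytoskeletal and cytosolic ribosomal genes.

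Several of the largest changes belonged to no list above. Ecrg4, a secreted peptide precursor, read 3.21, 3.10 and 3.24 in the wild-type hearts and 10.28, 10.30 and 10.33 in the dnCREB hearts, at least 78.9-fold (adjusted p = 0.0028). Another of its probe sets read 2.69, 2.65 and 2.72 in wild type and 6.05, 5.94 and 6.63 in dnCREB, and its last differed by 0.59. Vgll2, a cofactor of TEAD transcription factors typical of skeletal muscle, read 3.59, 3.45 and 3.81 in the wild-type hearts and 10.17, 9.16 and 8.84 in the dnCREB hearts, at least 41.9-fold (adjusted p = 0.011). Arhgap11a was at least 24.4-fold higher and Ahnak2, a giant scaffold protein, rose by 5.24 ± 0.51 (adjusted p = 0.00019). The dnCREB hearts were above all wild-type hearts for each of these.

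Among the falls, Cep128, a centriole protein, read 8.90, 8.87 and 9.10 in the wild-type hearts and 4.32, 4.29 and 4.23 in the dnCREB hearts. Trim12c, a protein of the TRIM family, read 7.10, 6.75 and 7.05 in the wild-type hearts and 2.63, 2.64 and 2.56 in the dnCREB hearts. These had the smallest p of the comparison (adjusted p = 5.4e-08 for each), with little spread within any group, and the fall was 4.68 ± 0.14 for Cep128 and at least 7.82-fold for Trim12c. Aqp4, the water channel, read 7.03, 7.07 and 6.20 in the wild-type hearts and 2.55, 2.57 and 2.52 in the dnCREB hearts, at least 6.82-fold lower (adjusted p = 1.4e-06). Mylk4, a muscle kinase, read 12.52, 12.47 and 11.22 in the wild-type hearts and 7.72, 8.17 and 7.89 in the dnCREB hearts. Mme, the peptidase neprilysin that degrades natriuretic peptides, read 8.87, 8.56 and 8.63 in the wild-type hearts and 5.0, 5.34 and 3.40 in the dnCREB hearts. Both were lower in all dnCREB hearts, by -4.14 ± 0.97 (adjusted p = 0.015) and -4.11 ± 0.66 (adjusted p = 0.0023). Cabcoco1, Tbc1d10c, Ano10 and Efnb3 differed by -4.56, -4.21, -3.86 and -3.57, and in each the groups did not overlap.

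Other probe sets of the same genes were read as a check. Of 832 called genes with another probe set past the filter, 717 had every other probe set on the same side. Of 1380 such probe sets 1248 had the same sign (90.4%), beside 72.9% of 6440 over all genes tested, and 625 were called in the same direction and 1 in the opposite one. Of the 92 called genes named here that had another probe set past the filter, 8 had 1 of the opposite sign: Aldh18a1, Asph, Chchd3, Gsn, Myl4, Plat, Synpo and Tpm3. Plat gave 1.66 on the probe set used and -0.08 on its other one, and Myl4 3.25 and -0.23. The called genes whose probe sets lay farthest apart were Ecrg4, Mfap5, Slc38a1, Synpo, Gsn and Ttr. Slc38a1, a glutamine transporter, gave a difference of 4.70 and, on a probe set near the measured level, 3.81, 3.57 and 3.81 in wild type and 3.98, 4.22 and 4.25 in dnCREB. Synpo, an actin-binding protein, gave 3.78 and -0.46. Gsn, the actin-severing protein gelsolin, gave 0.45, 0.49 and 0.56 and, on a probe set that did not pass, -3.91, where dnCREB replicate 3 stood at 2.70 and the other 5 arrays between 14.46 and 15.22. Ttr, a thyroid hormone carrier, read 3.69, 3.35 and 3.72 in wild type and 8.68, 5.99 and 9.22 in dnCREB, and passed on this and on 1 of its 3 other probe sets. Called genes lay on all 19 autosomes, from 14.1% of the genes tested on chromosome 17 to 23.6% on chromosome 3.

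The same genotypes under PM gave the comparison again in 6 other arrays. The spread of those arrays entered the model that called the PBS genes, and the filter used them too. The agreement is therefore not that of an independent repeat. Of the 1254 genes called higher under PBS 1233 were also higher under PM and 793 were called so, beside 1099 of all genes (11.4%). Of the 531 called lower 529 were lower and 418 were called so, beside 870 of all genes (9.01%), and 0 were called in the opposite direction. The median difference of the genes called higher was 1.05 under PBS and 0.86 under PM, and that of the genes called lower -0.90 under both. Nppa gave 2.10 under PBS and 1.88 under PM, Postn 5.49 and 4.52, Comp 7.07 and 6.28, Kcnd2 -1.65 and -2.35, and Echs1 -1.0 and -0.86. Among marker lists, macrophage markers were called higher in 1 of 15 members under PBS and 12 under PM, and complement genes in 4 and 10 of 14. Aqp4 stood at 6.77 ± 0.49 (SD, n = 3) in wild type and 2.55 ± 0.03 in dnCREB under PBS, and at 4.83 ± 0.07 and 2.63 ± 0.09 under PM. A test of the difference between PBS and PM (interaction) by limma called 0 genes, with 340 at an unadjusted p under 0.05 and a smallest adjusted p of 0.23, that of Aqp4.

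The dnCREB PM replicate 3 heart had high Xist, as the wild-type hearts did. Of the 1254 genes called higher under PBS 1131 were above all 3 wild-type PM arrays in that heart (90.2%, beside 30.8% of all genes), as were 1114 (88.8%, beside 39.7%) and 1153 (91.9%, beside 39.2%) in dnCREB PM replicates 1 and 2. Of the 531 called lower 517 were below all 3 (97.4%, beside 39.9%), and 492 (92.7%, beside 33.8%) and 503 (94.7%, beside 26.3%) in the other 2. Each of these shares rests on 1 heart, and the spread of the PM hearts also entered the model that called the PBS genes.

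In lung, a tissue in which the transgene was not designed to act, the same contrast under PBS by limma called 0 of the 9661 genes, with 480 at an unadjusted p under 0.05 and a smallest adjusted p of 0.058. Of the genes called higher in the ventricle 49.2% were higher in lung, beside 46.3% of all genes. Of those called lower 45.6% were lower in lung, beside 53.7% of all genes. The filter was set on the ventricle arrays, so a gene in these shares need not be measured in lung. Comp gave 0.05 in lung, Postn 0.16, Echs1 0.04 and Cep128 -0.20. The sex classes of the lung arrays also differed between the genotypes, with high Eif2s3y in the 3 wild-type arrays and in 0 of the dnCREB arrays, of which 1 had high Xist and 2 had neither. Tissue content may differ too: the median lung difference was 2.55 over 5 skeletal muscle markers and 1.68 over 4 adipocyte markers. What these values stem from was not tested.

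**Figure D5:**
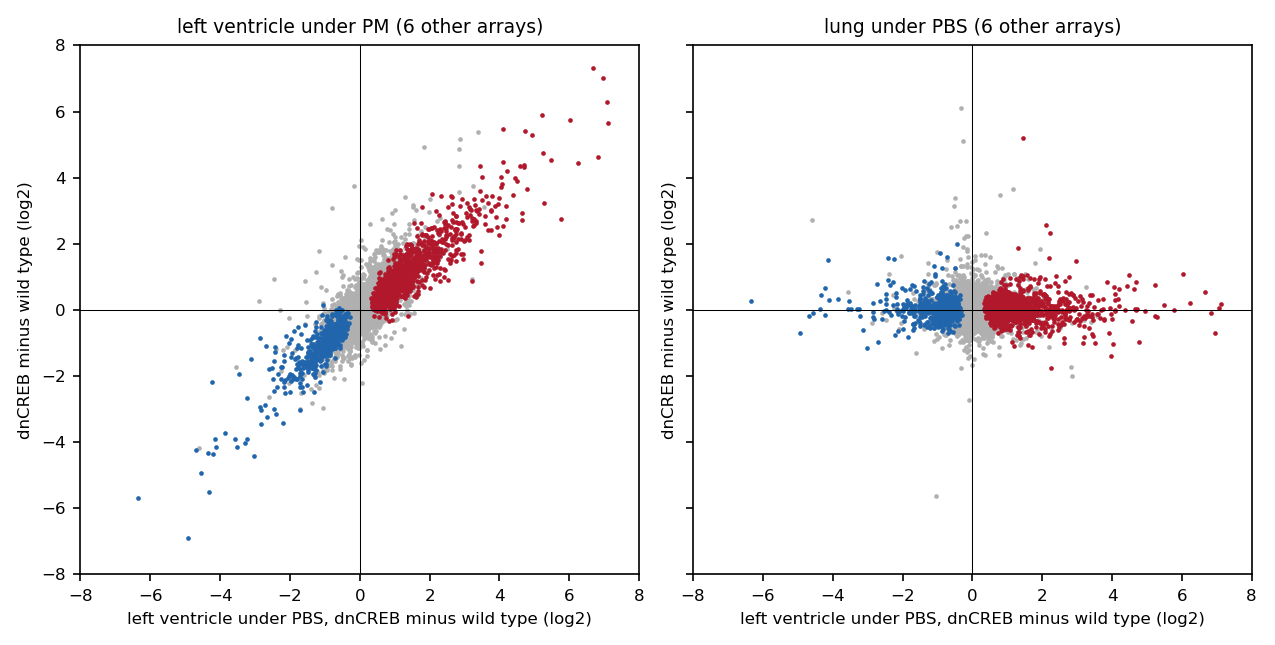
For each of the 9661 genes, the horizontal axis gives the difference in the left ventricle under PBS, dnCREB minus wild type (log2), and the vertical axis the same difference in the left ventricle under PM (left) and in lung under PBS (right), both from 6 other arrays, with red and blue for genes called higher and lower under PBS. Under PM 1233 of 1254 red and 529 of 531 blue points keep their side (r = 0.87 across genes, which are not independent replicates), and in lung the points scatter around 0. The spread of the PM arrays entered the model that called the red and blue genes.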

How the data were processed

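The authors deposited log2 values from Affymetrix mouse arrays, and GCRMA is named in the submitters' processing notes with no version. GCRMA corrects background by probe sequence and pushes low signals together, so small values have no order. The lowest value of a ventricle array was near -0.2. Flat wild-type levels differed between probe sets, with means of 4.18 for Comp and 5.55 for Cilp. Total RNA was extracted with Trizol, per the labels' protocols. Probe sets with 1 gene symbol (34945 of 45037) stood for 18193 genes.

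Genes were tested with limma 3.58.1 (R 4.3.3) on 4 group means of the 12 ventricle arrays, with Benjamini-Hochberg adjustment over 9661 genes, after a check on simulated data. A gene with a group wholly under a log2 value of 4 is given as an at-least fold against 4. Groups came from the labels, with 3 animals each per the series' design text, and the 3 arrays per group limit the precision. The members, the 39 lists by role, the 17 marker lists and the tests were chosen with earlier results of these data known. Genes were named by a rule: the 12 largest rises and falls without overlap, up to 4 called members of each list in each direction by smallest p, and a set of key cardiac and CREB genes. Alternatives were other probe set choices, filters, scalings, fits, a sex covariate, a replicate block and each array left out in turn.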

Additional observations from a re-analysis of the deposited data

Results flagged for a closer look

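Of the 206 named genes called in the ventricle, 13 (6.31%) moved one way in every dnCREB heart and the opposite way in every dnCREB lung under PBS. The groups lay apart in both tissues for these, and 8 others (3.88%) moved the same way. The opposite share was 7.96% of all 1785 called genes and 3.14% of all 9661 tested. The 13 are thus not a larger share than among called genes, and their values are a description. Over all genes tested the groups lay apart in the ventricle for 4113, of which 303 lay apart the opposite way in lung and 244 the same way, and over the 1772 of the called genes whose groups lay apart these numbers were 142 and 106. The difference between the tissues was not tested, since each was fitted on its own. None of the 13 named genes passed in lung (limma, adjusted p = 0.82 for Nupr1 and 0.91 for the others).

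Of the genes called higher in the ventricle, the matrix proteoglycan Vcan gave -1.41 in lung (3.98 in ventricle), the natriuretic clearance receptor Npr3 -1.77 (2.24), the protein C receptor Procr -0.53 (2.47), the actin-binding Tagln -0.28 (1.24) and the binding protein Igfbp6 -0.54 (1.97). The starvation response genes Nupr1, Atf5 and Aldh18a1 gave -1.0 (3.51), -1.11 (1.20) and -0.40 (2.12). The CREB relative Crem gave -0.68 in lung (1.55), and the potassium channel Kcnj14, at least 40.4-fold higher in the ventricle, gave -0.10. The filter used ventricle arrays only, so the genes counted here need not be measured in lung. A small difference such as that of Kcnj14 may lie among values without order.

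Of the genes called lower in the ventricle, the potassium channel Kcnh2 gave 0.36 in lung (-1.49), the phosphofructokinase Pfkm 1.25 (-0.50) and the lipoprotein receptor Vldlr 0.37 (-0.59). Pfkm is the muscle form, and skeletal muscle markers had a median difference of 2.55 in lung. Whether muscle RNA in the lung samples accounts for the Pfkm value was not tested.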

How the results depend on the processing

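The count of 1785 called genes stayed within 1.5 times its value under other probe set choices, filters, scalings, sample sets and variance models, and moved to 322 with the sex class as a covariate, of which 288 were shared. Leaving out 1 array gave 1043 to 1617 genes. The counts without dnCREB replicate 3 (1043) and wild-type replicate 3 (1131) were the lowest and lay outside 1.5 times. The test of PBS against PM gave 0 to 3 genes and lung 0 to 1 with 1 array left out. Of the 211 named genes 200 kept direction and side of the threshold under quantile normalization, 194 with centred arrays, 185 with only the 6 PBS arrays and 74 with the sex class. Myh6, not called at -0.16, stood at 0.00 with its sign turned under quantile normalization. Replicate numbers did not pair the arrays, with correlations of -0.005, 0.009 and -0.045 between same-numbered arrays, and with the replicate number as a block 1663 genes were called, 1563 of them shared, and 1 gene in lung. With 3 arrays a group, and values under 4 counted as not measured, folds from very low levels are bounds only. The cause of these movements was not tested.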
